A study of Homo sapiens with 4 samples.

Results

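The D-type cyclins CCND1 and CCND2 were represented by 3 of the 53617 probe sets on the array, 1 for CCND1 (probe set 16728261) and 2 for CCND2 (16746992 and 16760142). The probe sets were taken by gene symbol from the platform annotation, without a filter on their values. The 2 genes were chosen with earlier results of these data known, and they stand among 14884 named genes. Both entrez identifiers matched the RefSeq gene table of assembly GRCh38.p14, which places CCND1 on chromosome 11 and CCND2 on chromosome 12. The RNA came from Hut78 cells, an established human cutaneous T-cell lymphoma line, grown in IMDM medium with 10% serum. The 2 groups were cells given the compound CSH71 at 250 nM for 30 h (2 arrays) and untreated cells (2 arrays). The series presents the compound as one that targets p38γ, the stress-activated kinase encoded by MAPK12, through its domain for lipid binding. Nothing in the labels says that the untreated cells received a vehicle or that the replicates came from different cultures. The p-values therefore reflect the scatter between these arrays alone, which may be technical, and the results describe 1 cell line.

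D-type cyclins carry growth signals into the cell cycle. Each binds CDK4 or CDK6, and the active kinase phosphorylates the retinoblastoma family of pocket proteins, which then release E2F transcription factors that switch on genes for DNA synthesis. INK4 proteins block the kinases, and ubiquitin ligases remove the short-lived cyclins. Normal lymphocytes rely on CCND2 and CCND3, whereas CCND1 is the form of most epithelial and mesenchymal cells and is the gene activated by translocation in mantle cell lymphoma. p38 kinases and AP-1 factors are known to act on cyclin D transcription in several cell types.

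CCND2 was one of the brightest genes on all 4 arrays and its signal was nearly identical in both groups. Its main probe set, 16746992, read 5379 and 5308 in CSH71-treated cells, against 5261 and 5267 in untreated cells. Values are linear intensities as deposited, in arbitrary units. Both treated arrays lay above both untreated arrays, but the gap between the nearest pair was small beside the level itself. The means were 5344 ± 50.2 in CSH71-treated and 5264 ± 4.52 in untreated cells (SD, n = 2 per group). On the scale of log2(intensity + 16), the fold change, CSH71 minus untreated, was 0.022 ± 0.16 (SE), which is a ratio of 1.02.

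CCND1 gave a moderate signal that varied between arrays of the same group. Probe set 16728261 read 365 and 442.5 in CSH71-treated cells, against 496 and 336 in untreated cells. The highest and the lowest of the 4 values were both untreated, and the treated values lay between them. The means were 404 ± 54.7 in CSH71-treated and 416 ± 113 in untreated cells (SD, n = 2 per group), with a log2 fold change of -0.023 ± 0.23 (SE), a ratio of 0.984. Here the 2 untreated arrays differed by 0.54 on the log2 scale and the treated ones by 0.27, both far more than the difference between the group means.

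Neither cyclin passed the test. With limma, a linear model that shares variance information across genes, and Benjamini-Hochberg adjustment over all 14884 genes, the adjusted p was 0.999 for both genes. Calls required an adjusted p under 0.05, which 0.047% of all genes met, 0.0403% higher and 0.00672% lower with CSH71. The unadjusted p was 0.925 for CCND1 and 0.899 for CCND2, where 5.1% of all genes had one under 0.05. The groups of CCND2 did not overlap while those of CCND1 did, and 31.6% of all genes had groups that did not overlap, 15% with CSH71 higher and 16.6% with CSH71 lower. A positive fold change like that of CCND2 was found for 47.9% of all genes and a negative one like that of CCND1 for 52%. The sign of CCND1 turned when CSH71 replicate 1 (0.11) or untreated replicate 1 (0.25) was left out or the arrays were quantile normalized (0.0011), and was -0.16 and -0.29 without the other 2 arrays in turn.

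The intervals give the range of change that the data allow under limma's shared variance. The 95% interval of the log2 fold change ran from -0.57 to 0.52 for CCND1, a ratio of 0.674 to 1.44, and from -0.37 to 0.41 for CCND2, a ratio of 0.775 to 1.33. With 1 array left out the limits widened, for CCND1 to as low as -0.87 without untreated replicate 2 and as high as 0.82 without untreated replicate 1, and for CCND2 to at most -0.54 and 0.59. A change of the measured signal by 2-fold in either direction lay outside all of these intervals, and smaller changes inside them remain possible. For CCND1 this holds only under the shared variance. Its own replicate SD was 0.301, against a median of 0.179 over all genes, so the sharing narrowed its interval. An interval from the scatter of CCND1 alone would be wider and was not computed. The limits do not say what size of change would be called. The transcription factor EGR1, at 1.60 on 1 probe set, did not pass (limma adjusted p = 0.0520). The deposited values carry no detection call or background level, so the intervals bound the signal and not the RNA itself.

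**Figure D1:**
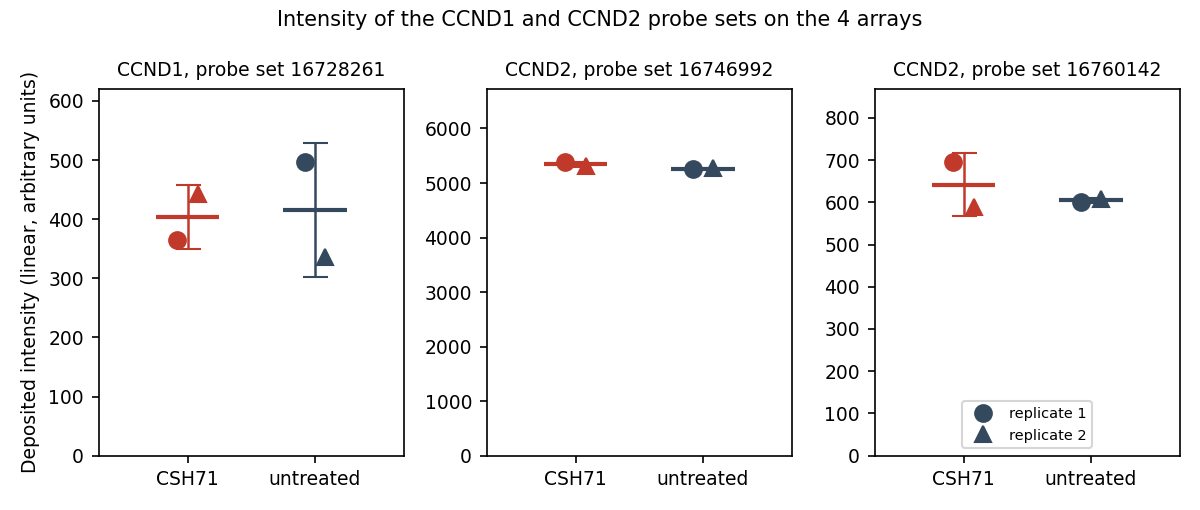
Deposited linear intensity of the CCND1 probe set and both CCND2 probe sets (vertical axes, arbitrary units, each from 0) in CSH71-treated and untreated cells. Circles are replicate 1, triangles replicate 2, horizontal lines group means and error bars 1 SD (n = 2). CCND2 on probe set 16746992 stays between 5261 and 5379 on all arrays, while CCND1 spans 336 to 496 within the untreated group alone.

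The second CCND2 probe set, 16760142, carries the same transcript accession in the annotation but was much dimmer and less steady. It read 695 and 589 in CSH71-treated cells, against 599.8 and 609 in untreated cells, so that the treated values lay on either side of the untreated ones. Its means were 642 ± 74.6 in CSH71-treated and 604 ± 6.46 in untreated cells, a log2 fold change of 0.08 ± 0.19 (adjusted p = 1 in a limma fit of all 53617 probe sets). RefSeq lists an antisense RNA gene, CCND2-AS1, that overlaps the start of CCND2, and the annotation used does not say which strand or part of the locus either probe set reads. The 2 probe sets had the same sign, and neither passed the limma threshold.

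The position of each gene in the signal distribution describes how bright it was. CCND2 lay above 99.7% to 99.8% of named genes on every array. CCND1 lay above 69.9% and 74.6% of named genes in CSH71-treated cells and above 76.7% and 67.8% in untreated cells. Intensities of different probe sets depend on the probes, so these ranks describe brightness on the array, can hardly move for a gene as bright as CCND2, and do not set the RNA amount of CCND1 against that of CCND2.

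The replicate SD on the log2 scale was 0.301 for CCND1 and 0.0096 for CCND2, against a median of 0.179 over all genes. Bright genes vary less, so the SD was also set against genes within 0.5 log2 units of the same mean signal. CCND1 had a larger SD than 95.7% of 1928 such genes, whose median was 0.156. CCND2 had a larger SD than only 3.92% of 102 such genes, whose median was 0.0469. CCND1 was thus among the less reproducible genes of its brightness and CCND2 among the more reproducible ones, as described by 2 arrays per group.

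**Figure D2:**
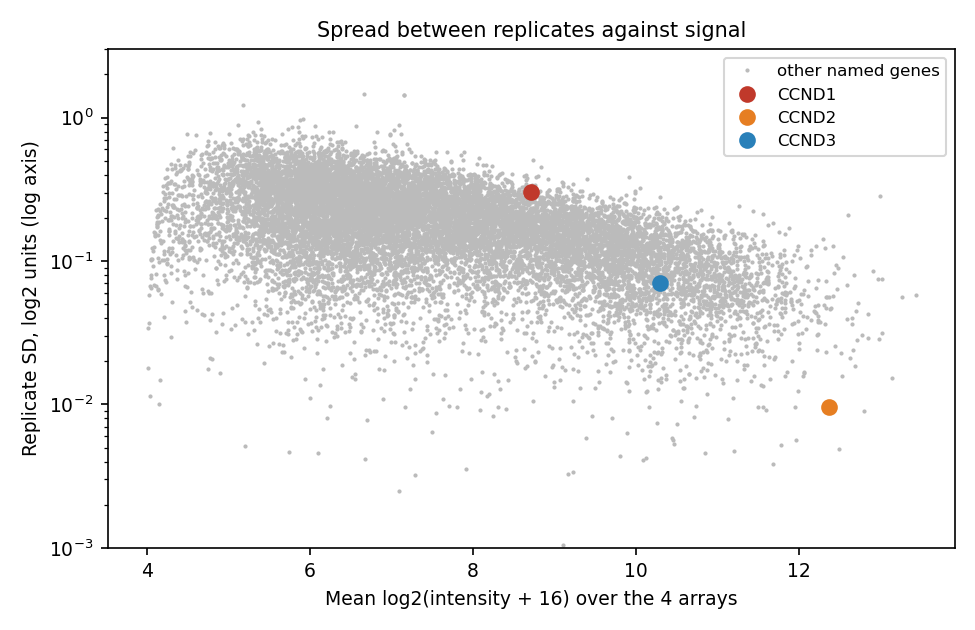
Replicate SD in log2 units (vertical, log axis) against mean log2(intensity + 16) over the 4 arrays (horizontal) for all named genes in grey, with CCND1, CCND2 and CCND3 coloured. 3 genes with an SD under 0.001 fall below the axis. CCND1 at 0.301 sits at the upper edge of genes of its brightness and CCND2 at 0.0096 near the lower edge.

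The order of the arrays for CCND1 was not that of the treatment. Its signal was higher on CSH71 replicate 2 and untreated replicate 1 than on CSH71 replicate 1 and untreated replicate 2. Over all probe sets the array medians were 73.6 and 81.1 in CSH71-treated cells and 77.5 and 71.5 in untreated cells, so the 2 arrays with more CCND1 signal were also the 2 with higher medians. Summed monocyte, B-cell and epithelial markers were also higher on those 2 arrays, the B-cell markers by a narrow margin, and fibroblast markers were not. The sums do not hold for every member. BLK (272 and 256 in CSH71-treated, 318 and 347 in untreated cells) ran the reverse way within each group. So did KRT8 (110 and 97.5 in CSH71-treated, 90.9 and 119 in untreated cells). CD68, FCN1 and KRT5 were mixed. The other measured monocyte, B-cell and epithelial markers were each higher on those 2 arrays, on the probe set used. A second probe set of KRT18 ran the reverse way within each group (155 and 126 in CSH71-treated, 168 and 177 in untreated cells). The second one of LYZ was mixed. The summed intensity of 7 of 7 monocyte markers was 614 and 702 in CSH71-treated cells and 779 and 594 in untreated cells, and that of 3 measured of 7 B-cell markers was 599.9 and 710 in CSH71-treated cells and 822 and 707 in untreated cells. The 5 measured of 6 epithelial markers summed to 2667 and 2986 in CSH71-treated cells and 2912 and 2756 in untreated cells, most of it from EPCAM. None of these markers was at 0 on any array, but many were dim. Only 1 of 7 monocyte and 2 of 5 epithelial markers were brighter than the median gene, against 3 of 3 B-cell markers. The part of the array medians or of other cells in the CCND1 values was not tested. The 10 measured of 14 T-cell markers summed to 9031 and 8595 in CSH71-treated cells and 8942 and 9179 in untreated cells, another order. Of these T-cell markers 8 were brighter than the median gene, while CD2 and CD28 were dimmer. The 2 measured of 6 fibroblast markers were dim and followed another order, with sums of 71.9 and 91.4 in CSH71-treated cells and 64.04 and 60.9 in untreated cells.

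The genes with the most similar behaviour were found by Euclidean distance between the 4 log2 values, each centred on the gene's own mean, among 7441 genes brighter than the median gene. For CCND1 these were LINC00235, a long noncoding RNA, at a distance of 0.018, HOXC12, a homeobox transcription factor, at 0.032, and GIMD1 at 0.044. HOXC12 read 269.7 and 319 in CSH71-treated cells, against 366 and 248 in untreated cells, the order of arrays seen for CCND1. For CCND2 they were DHX9, an RNA helicase, at 0.0103, MTA1, a subunit of a chromatin remodelling complex, at 0.0111, and EIF4EBP2, a repressor of cap-dependent translation, at 0.0123. Their fold changes were as near 0 as that of CCND2, from 0.018 to 0.026. With 4 arrays such likeness is weak: 40 genes lay within 0.1 of CCND1 and 530 within 0.1 of CCND2.

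**Figure D3:**
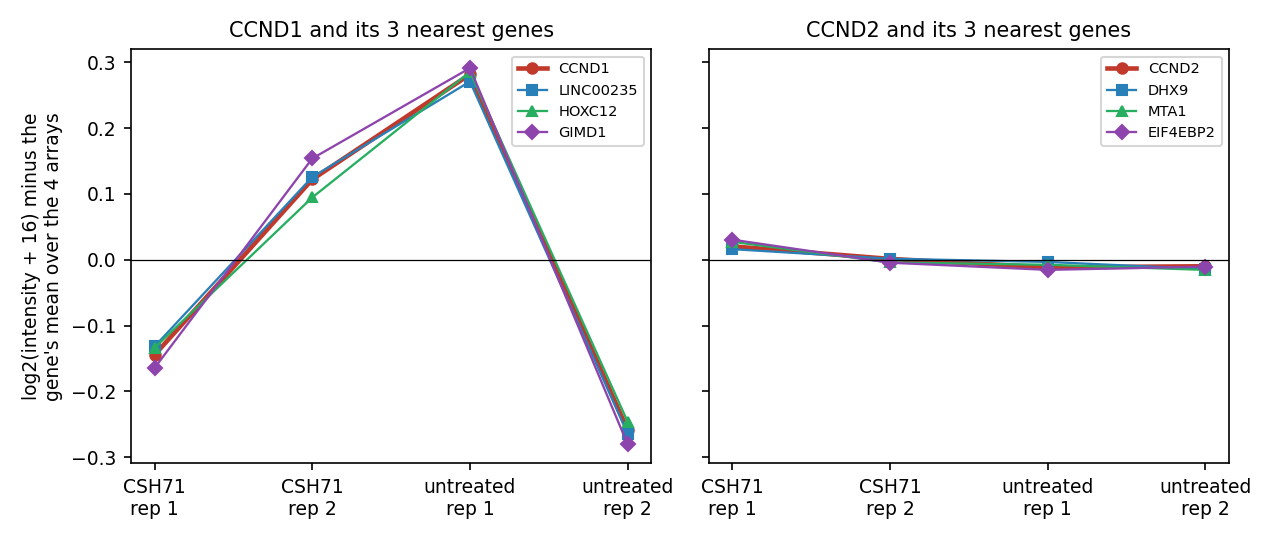
log2(intensity + 16) minus each gene's mean (vertical) on the 4 arrays (horizontal, CSH71 then untreated) for CCND1 and CCND2 and the 3 genes nearest to each. CCND1 and its neighbours peak on untreated replicate 1 and are lowest on untreated replicate 2. CCND2 and its neighbours stay close to 0 on all arrays.

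The third D-type cyclin, CCND3, which T cells use during thymic and later proliferation, was measured by 1 probe set. It read 1215 and 1105 in CSH71-treated cells, against 1314 and 1347 in untreated cells. Both treated values lay below both untreated ones, as for 16.6% of all genes. The log2 fold change was -0.20 ± 0.17 (SE), with a 95% interval of -0.60 to 0.20 and a limma adjusted p of 0.999. To ask whether the 3 cyclins moved apart, the difference of their log2 values was taken within each array and compared between groups for 3 pairs. The fold change of CCND1 minus that of CCND2 was -0.044 (exact 2-sided permutation p = 1), CCND1 minus CCND3 was 0.17 (0.667 by the same exact permutation test) and CCND2 minus CCND3 was 0.22 (0.333). The exact permutation test of 2 arrays against 2 cannot give a p under 0.333, and all 3 were 1 after Benjamini-Hochberg adjustment, so these p-values do not bear on whether the cyclins moved apart and the differences stand as values alone.

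No gene of the wider cyclin family was called. Of 26 measured cyclin genes, the D-type ones included, 0 rose and 0 fell by limma. An unadjusted p under 0.05 was found for 1 of them, and for 5.1% of all genes. The groups of 12 of the 26 (46.2%) did not overlap, against 31.6% of all genes. Log2 fold changes ran from -0.33 to 0.43 with a median of -0.028, against -0.010 for all genes. CCND1 and CCND2 stood in the middle of that range. The gene with the unadjusted p under 0.05 was CCNT1, the cyclin of the elongation kinase P-TEFb, at 1467 and 1505 in CSH71-treated cells against 1089 and 1138 in untreated cells. Both treated values lay well above both untreated ones. Its log2 fold change was 0.41 ± 0.17 (limma unadjusted p = 0.0422, adjusted p = 0.960). CCNO, a cyclin of multiciliated cells, was at 0.43, CCNL1, a cyclin linked to splicing, at 0.30, and CCNF, a substrate receptor of a ubiquitin ligase, at -0.33, each with a limma adjusted p of at least 0.990.

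**Figure D4:**
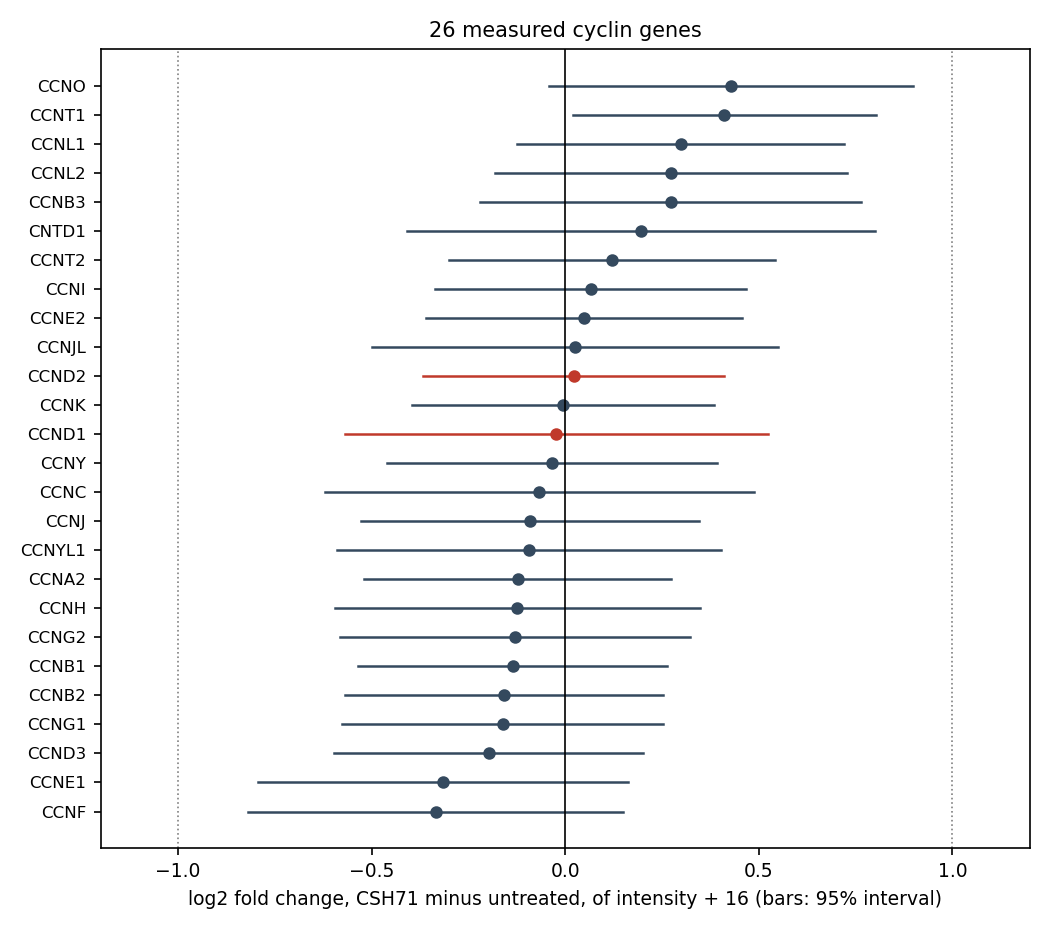
Log2 fold change of intensity + 16, CSH71 minus untreated (horizontal), for 26 measured cyclin genes, with bars for the 95% interval and dotted lines at a change of 2-fold. CCND1 at -0.023 and CCND2 at 0.022, in red, lie in the middle of the family.

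Their kinase partners were measured as well. CDK4 was bright, at 3105 and 2906 in CSH71-treated cells against 3135 and 3448 in untreated cells, and CDK6 was dim, at 62.3 and 69.7 in CSH71-treated cells against 72.4 and 68.4 in untreated cells. Their log2 fold changes were -0.13 ± 0.17 and -0.076 ± 0.17. The groups of CDK4 did not overlap, as for 31.6% of all genes, and those of CDK6 did. Of the INK4 inhibitors, 1 of 4 was measured: CDKN2A had 51.9 and 49.2 in CSH71-treated cells against 56.5 and 34.5 in untreated cells, a dim signal with a log2 fold change of 0.14 ± 0.22. The CIP/KIP inhibitors CDKN1A, CDKN1B and CDKN1C were not analysed here.

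The substrates of the cyclin D kinases, the pocket proteins, were not called either. RBL1 (p107) was at 2147 and 2002 in CSH71-treated cells against 1886 and 2233 in untreated cells, RBL2 (p130) at 970.2 and 984 in CSH71-treated cells against 975.5 and 951 in untreated cells, and RB1 at 49.7 and 57.9 in CSH71-treated cells against 57.2 and 47.2 in untreated cells. All 3 had overlapping groups and log2 fold changes from 0.014 to 0.035. RB1 was dim, brighter than only 22.6% of named genes. Among 7 measured of 10 E2F and DP factors, which act downstream of the pocket proteins, 0 rose and 0 fell, and 0 had an unadjusted p under 0.05. The lowest was E2F8, a repressive E2F, at 841 and 748 in CSH71-treated cells against 988 and 1143 in untreated cells (-0.41 ± 0.18, adjusted p = 0.990), and the highest was the activator E2F3 at 0.21. The list had a median of -0.16, against -0.010 for all genes.

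Genes that act later in G1 or that E2F switches on also did not pass. Of 6 measured later G1 genes, 0 rose and 0 fell, with CCNE1, cyclin E1, lowest at -0.32 ± 0.20 and CDC25A, the phosphatase that activates CDK2, highest at 0.11. Of 16 measured of 20 E2F-responsive S-phase genes, 0 rose and 0 fell, 0 had an unadjusted p under 0.05, and 13 had a negative fold change where 52% of all genes did. Their values were small, from -0.19 for MCM2, a subunit of the replicative helicase, to 0.061, with a median of -0.059.

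Genes that set the lifetime of D-type cyclins likewise showed no call among 10 measured of 14. AMBRA1, the ubiquitin ligase adaptor for D-type cyclins, was at 982 and 804 in CSH71-treated cells against 836 and 849.9 in untreated cells (log2 fold change 0.075), and GSK3B, a kinase reported to mark CCND1 for export and degradation, was at 0.027. USP2, a deubiquitinase reported to stabilise CCND1, was at 0.33 ± 0.21 on the brighter of its 2 probe sets and -0.22 on the other.

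**Figure D5:**
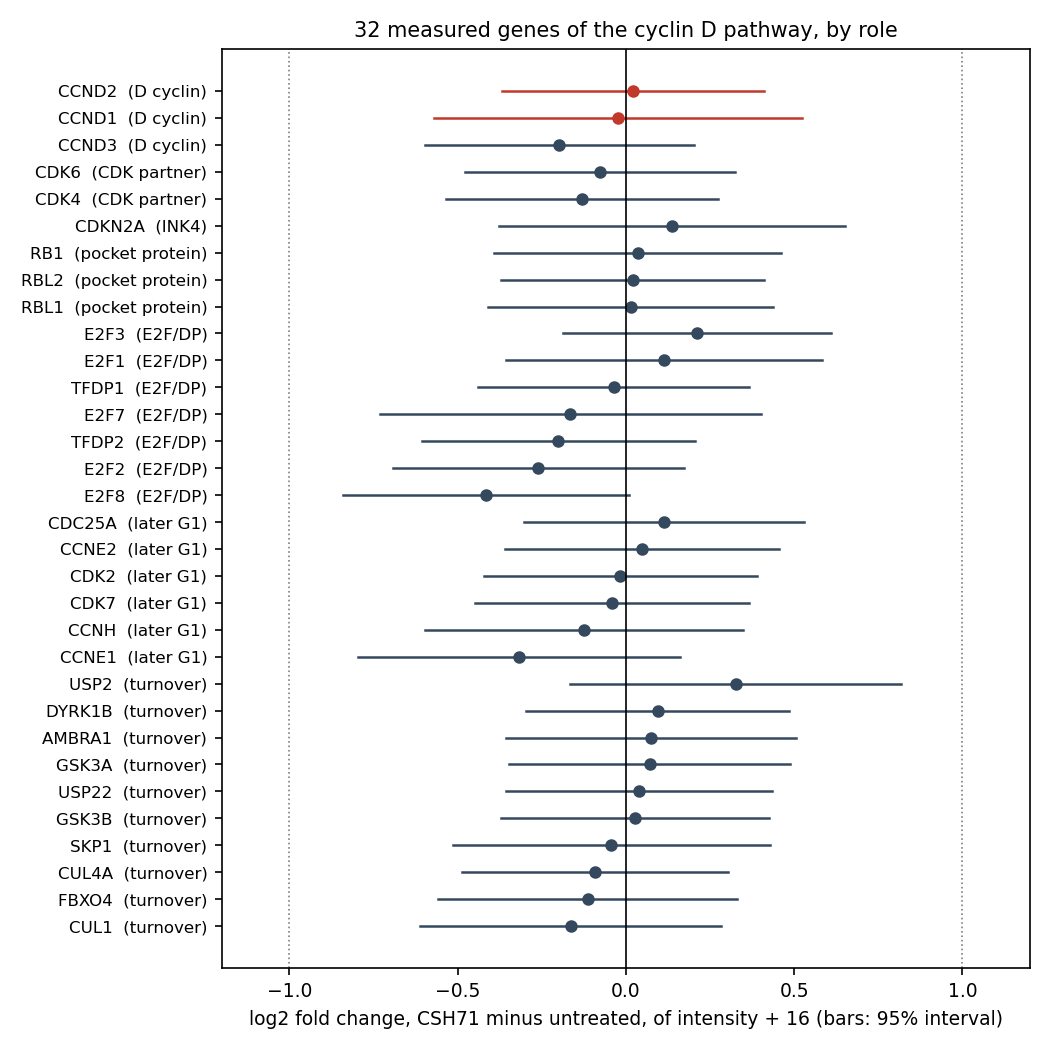
Log2 fold change of intensity + 16, CSH71 minus untreated (horizontal), for 32 measured genes of the cyclin D pathway grouped by role, with bars for the 95% interval and dotted lines at a change of 2-fold. No point reaches a dotted line, and CCND1 and CCND2, in red, lie next to 0.

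The one list with calls was that of transcription factors reported at cyclin D promoters. Of 24 measured of 26, 3 rose, 0 fell and 21 did not pass, against 0.0403% of all genes called higher. Those that rose were JUN and FOSL2, AP-1 subunits, and CREM, a factor that binds cAMP response elements. JUN was at 857 and 800.1 in CSH71-treated cells against 88.7 and 127 in untreated cells (log2 fold change 2.79 ± 0.21, limma adjusted p = 0.0226), and CREM and FOSL2 had log2 fold changes of 2.47 ± 0.20 and 2.01 ± 0.17 (both adjusted p = 0.0247). Limma called none of the list without untreated replicate 1 or without untreated replicate 2, where 7 and 6 of the 92 measured pathway genes had an unadjusted p under 0.05. EGR1, an immediate early factor, was at 1.60 on 1 probe set (adjusted p = 0.0520) and 0.07 on its other one. A limma unadjusted p under 0.05 was found for 6 of the 24 factors, all higher with CSH71, and for 5.1% of all genes. LEF1, a partner of β-catenin, and MYC had values of -0.23 and -0.11, and the median of the list was 0.034. These calls were known when the list was made, so they are given only to place CCND1 and CCND2 beside them: on the same arrays on which JUN differed by 2.79, the 2 cyclins differed by -0.023 and 0.022.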

How the data were processed

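The authors deposited 1 linear intensity per probe set and array, from Affymetrix Expression Console per the submitters' processing notes; its version, summary method and normalization were not given in the sources used here. Labelling followed a whole-transcript sense-target assay, per the labels. Of 53617 probe sets, 16098 had 1 symbol, 0 several and 37519 none; for 779 genes with several, the one with the highest mean was used. Values were transformed to log2(intensity + 16), not normalized again, and compared with limma 3.58.1 in R 4.3.3 (2 group means, default variance moderation, Benjamini-Hochberg over 14884 genes). The number of arrays limits the precision. Groups and replicate numbers came from the titles. Same-numbered arrays deviated in opposite directions (Pearson's r = -0.29 across 14884 genes, which are not independent), so the numbers were not used to pair arrays. The median absolute log2 difference over genes was 0.194 within CSH71 and 0.216 within untreated. Between CSH71 replicate 2 and untreated replicate 1 it was 0.175, and between CSH71 replicate 1 and untreated replicate 2 it was 0.183. For same-numbered arrays it was 0.209 and 0.238. Replicates were thus less alike than arrays of some pairs across the groups.

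The members, the 16 gene lists and the tests were chosen with earlier results of these data known. Lists of up to 14 genes may be named in full, longer ones by their 4 smallest p-values and any call; AMBRA1 and the other genes follow that rule, except LEF1 and MYC, chosen after their values were seen. Alternatives were 15 in number. The procedure was tested on simulated data with the same SD for all genes. The SD of the real data differs between genes, so that test does not show how the intervals or calls hold here. Figures used matplotlib 3.10.9.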

Additional observations from a re-analysis of the deposited data

How the results depend on the processing

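Neither CCND1 nor CCND2 passed the limma threshold under any of 15 alternatives. CCND2 stayed positive in all 15, from 0.012 to 0.054, and CCND3 negative, from -0.26 to -0.13. CCND1 turned positive after quantile normalization (0.0011) and ran from -0.29 to 0.25 when 1 array was left out, positive without CSH71 replicate 1 (0.11) or untreated replicate 1 (0.25), so its sign is not settled. CCND1 minus CCND2 likewise ran from -0.32 to 0.23 (0.099 without CSH71 replicate 1). An array left alone in its group is assumed to vary like the others. With a variance prior that follows intensity, the 95% interval of CCND2 narrowed to -0.088 to 0.13.

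The number of genes called, 7 as reported, was 0 with a pseudocount of 1 (768 at an unadjusted p under 0.05), quantile normalization (964) or all probe sets (2367), 33 with a pseudocount of 64, 27 after median centring, 11 without the dimmest 40% of genes, 143 with the intensity-following prior, and 0 to 29 with 1 array left out (0 without either untreated replicate, with 794 and 609 at an unadjusted p under 0.05, 29 without CSH71 replicate 1 and 20 without CSH71 replicate 2). The replicate block gave 27 calls and CCND1 at -0.023 and CCND2 at 0.022, both uncalled; a crossed replicate block, chosen after seeing the data, gave 0 (1288 unadjusted). Of 92 measured pathway genes, 3 were called as reported, 0 with a pseudocount of 1, quantile normalization, all probe sets or the crossed block, 5 with a pseudocount of 64, 6 with the intensity-following prior, and 0 to 4 with 1 array left out. The cause of these shifts was not tested.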

Other observations

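The 2 nearest measured genes on each side of either cyclin, in the order of the RefSeq gene table, gave further values. Genes not measured here were skipped, so most of these are not immediate neighbours. The genes between the cyclin and the named gene ranged from 0 for TIGAR to 17 for PRMT8, where CRACR2A is counted too. Around CCND1 on chromosome 11, LTO1, which encodes a ribosome biogenesis factor, was at 177 and 179.5 in CSH71-treated cells against 157 and 183 in untreated cells (log2 fold change 0.065). MYEOV, a gene often amplified together with CCND1 in tumours, was dim, brighter than only 19.8% of named genes. It was at 63.8 and 54.3 in CSH71-treated cells against 44.8 and 32.4 in untreated cells (0.47 ± 0.19, limma unadjusted p = 0.0465, adjusted p = 0.973). Both treated values lay above both untreated ones, as for 15% of all genes. The growth factor gene FGF19 was at 0.11 and the microRNA gene MIR3164 at 0.039. Around CCND2 on chromosome 12, TIGAR, a regulator of glycolysis, was at 242 and 216 in CSH71-treated cells against 163 and 199.6 in untreated cells (0.32 ± 0.18, adjusted p = 0.999). CRACR2A, a calcium-channel regulator of T cells, was at 569.8 and 567 in CSH71-treated cells against 557 and 556 in untreated cells (0.031), as flat as CCND2 itself, and PRMT8 and FGF23 were dim, at -0.17 and 0.15. None of the 8 genes passed the limma threshold, and 1 of them, MYEOV, had an unadjusted p under 0.05, where 5.1% of all genes did.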
